A study of Mus musculus with 12 samples.

Results

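The 10 genes described here carry VEGF and angiopoietin signalling in the blood vessel wall: the ligands Vegfa and Pgf, the VEGF receptors Kdr and Flt1, the angiopoietins Angpt1 and Angpt2, the receptor tyrosine kinases Tek and Tie1, and Apln and Esm1, a secreted peptide and a proteoglycan known from sprouting endothelium. They were taken by name from the 54532 Ensembl genes counted in each library, each symbol matched 1 gene, and all 10 had enough counts to be tested. They were measured by polyA+ RNA sequencing of striatum from C57BL/6J mice in 12 libraries, in a study of SN-011, which blocks STING, an adaptor of cytosolic DNA sensing, after transient middle cerebral artery occlusion, a stroke model in which the main artery to the striatum is closed and reopened. The 4 groups of 3 libraries were a sham operation with PBS, occlusion with PBS (vehicle), occlusion with SN-011 (SN011) and a second arm of occlusion with SN-011 whose titles start with 3d (3d-SN011). The labels give no age, occlusion time, sampling time, dose or hemisphere, and no meaning for 3d. No sham or vehicle library is titled 3d, so the drug and whatever 3d marks cannot be told apart in that arm. Nothing in the labels says that the libraries of a group are separate animals, so p-values measure the spread between these samples, which may be technical.

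VEGF-A is made by glia, neurons and other cells of hypoxic tissue and drives endothelial cells to divide, sprout and loosen their junctions through Kdr (VEGFR2). Flt1 (VEGFR1) binds VEGF-A more tightly and signals less, so that it acts largely as a sink, and PlGF, the product of Pgf, binds Flt1 and not Kdr. Angiopoietin-1, from pericytes and other supporting cells, activates Tek (Tie2) and keeps vessels quiet and tight. Angiopoietin-2, released by activated endothelium, opposes it in many settings, and Tie1 modulates Tek without a well-defined ligand of its own. In the brain this system is known for its part in blood-brain barrier leakage and in vessel growth at the edge of an infarct.

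Promoter sequences are shown for Vegfa, the member whose fall in the 3d-SN011 arm passed the test against vehicle, sham and SN011 alike. They are also shown for its receptors Kdr and Flt1, which moved together across the libraries. Each is the 250 bases before a RefSeq start (GRCm38.p6), written 5′ to 3′ on the gene's strand, and the 3 windows are chr17:46032378-46032627, chr5:75978456-75978705 and chr5:147726012-147726261, all on the minus strand. Capitals mark ACGTG or GCGTG, the core letters of the hypoxia response element bound by HIF, and GGAAG, the core bound by ETS factors, on either strand, so that the reverse complements are in capitals too. No match overlapped another in these windows.
Vegfa: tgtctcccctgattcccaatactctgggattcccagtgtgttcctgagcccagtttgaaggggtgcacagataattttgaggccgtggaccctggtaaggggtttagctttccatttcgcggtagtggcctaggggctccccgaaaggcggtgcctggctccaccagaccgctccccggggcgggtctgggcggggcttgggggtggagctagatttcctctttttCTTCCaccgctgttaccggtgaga
Kdr: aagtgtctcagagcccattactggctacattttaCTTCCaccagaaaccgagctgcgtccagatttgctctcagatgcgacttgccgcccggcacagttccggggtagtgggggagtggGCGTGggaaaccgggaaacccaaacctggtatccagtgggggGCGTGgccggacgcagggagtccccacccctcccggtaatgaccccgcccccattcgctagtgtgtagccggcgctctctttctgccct
Flt1: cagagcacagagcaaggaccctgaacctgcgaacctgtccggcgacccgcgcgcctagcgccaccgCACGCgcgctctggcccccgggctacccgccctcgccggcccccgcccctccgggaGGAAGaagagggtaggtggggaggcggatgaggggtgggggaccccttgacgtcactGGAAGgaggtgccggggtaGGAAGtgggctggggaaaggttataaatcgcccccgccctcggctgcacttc

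None of the 3 printed windows held ACGTG, and bases further upstream were not searched, so a hypoxia response element there would be missed. The printed Vegfa window held 0 copies of GCGTG and 1 of GGAAG, the Kdr window 2 and 1, and the Flt1 window 1 and 3. Over all 32851 RefSeq promoter windows of this length, 16.6% held ACGTG, 28.2% GCGTG and 64.1% GGAAG, so these letters are common. RefSeq gives Vegfa a further start, whose window (chr17:46025164-46025413, minus strand) held 1 copy of each of the 3 motifs and is not printed because 218 of its bases are exonic in GENCODE M21. The Kdr window includes 3 bases of an exon in GENCODE M21 and the other pair includes 0. RefSeq windows were found for 8 of the 10 members, and those of Angpt1 and Angpt2 are not shown here.

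Each library held 15806076 to 18622053 counted reads. The labelled tissue carried its markers in the sham, vehicle and SN011 libraries, where 12 genes of striatal neurons summed to 5672 to 10320 CPM (counts scaled to library size with TMM factors). In the 3d-SN011 arm they summed to 426, 1666 and 2428 CPM in replicates 1 to 3, and all 12 fell against vehicle. The same arm was higher in summed markers of microglia and macrophages (2583 to 3792 CPM against 291 to 331 in vehicle), astrocytes (11610 to 16560 against 5036 to 5436), oligodendrocytes (14780 to 23560 against 8490 to 10560), and fibroblasts and meninges (107.5 to 974 against 42.3 to 49.8). The summed CPM of 7 markers of neutrophils and red blood cells was lower than in vehicle (22.7 to 99.95 against 135 to 143) and overlapped sham (64.5 to 95.1). Only 4 of the 7 were tested. The 2 called lower against vehicle, Alas2 and Hbb-bs, are red blood cell genes, and 0 were called against sham. Between pairs of libraries of this arm the chi-square over degrees of freedom was 47.2 to 78.2, against 4.79 to 8.85 in sham, 6.86 to 19.04 in vehicle and 13.9 to 57.3 in SN011. SN011 replicate 3 stood apart from its group, at 1246 CPM of microglia and macrophage markers against 412 and 529. In bulk RNA, fewer cells of a type and less RNA per cell cannot be told apart.

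A gene was called when edgeR's quasi-likelihood test, fitted over all 12 libraries and 18537 genes, gave a Benjamini-Hochberg adjusted p under 0.05. In the 3d-SN011 arm 5 of the 10 genes were called against vehicle, 4 higher (Pgf, Angpt1, Angpt2, Tie1) and 1 lower (Vegfa). Of all genes tested, 57.1% were called in that comparison, 28.9% higher and 28.2% lower, so 5 of 10 is near the background. Against sham 6 of the 10 were called, 3 higher (Pgf, Angpt1, Angpt2) and 3 lower (Vegfa, Kdr, Flt1), where 57.6% of all genes were called, 29.8% higher and 27.9% lower. Against SN011 the 5 called genes were the same as against vehicle, and 46.4% of all genes were called, 23.6% higher and 22.9% lower. The median log2 fold change of the 10 genes was 0.33 against vehicle, 0.16 against sham and 0.41 against SN011, beside 0.0093, 0.010 and 0.028 over all genes. The scaling of the libraries itself centres the fold changes of all genes, so their median is not an independent background. The groups did not overlap for 3 of the 10 against vehicle (Vegfa, Pgf, Angpt1), beside 59.4% of all genes, 29.5% higher and 30.0% lower. They did not overlap for the 6 called genes against sham, beside 63.3% of all genes, 31.8% higher and 31.5% lower, and for 3 against SN011 (again Vegfa, Pgf, Angpt1), beside 50.3%, 24.6% higher and 25.7% lower. The 3 comparisons share the 3d-SN011 libraries.

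**Figure D1:**
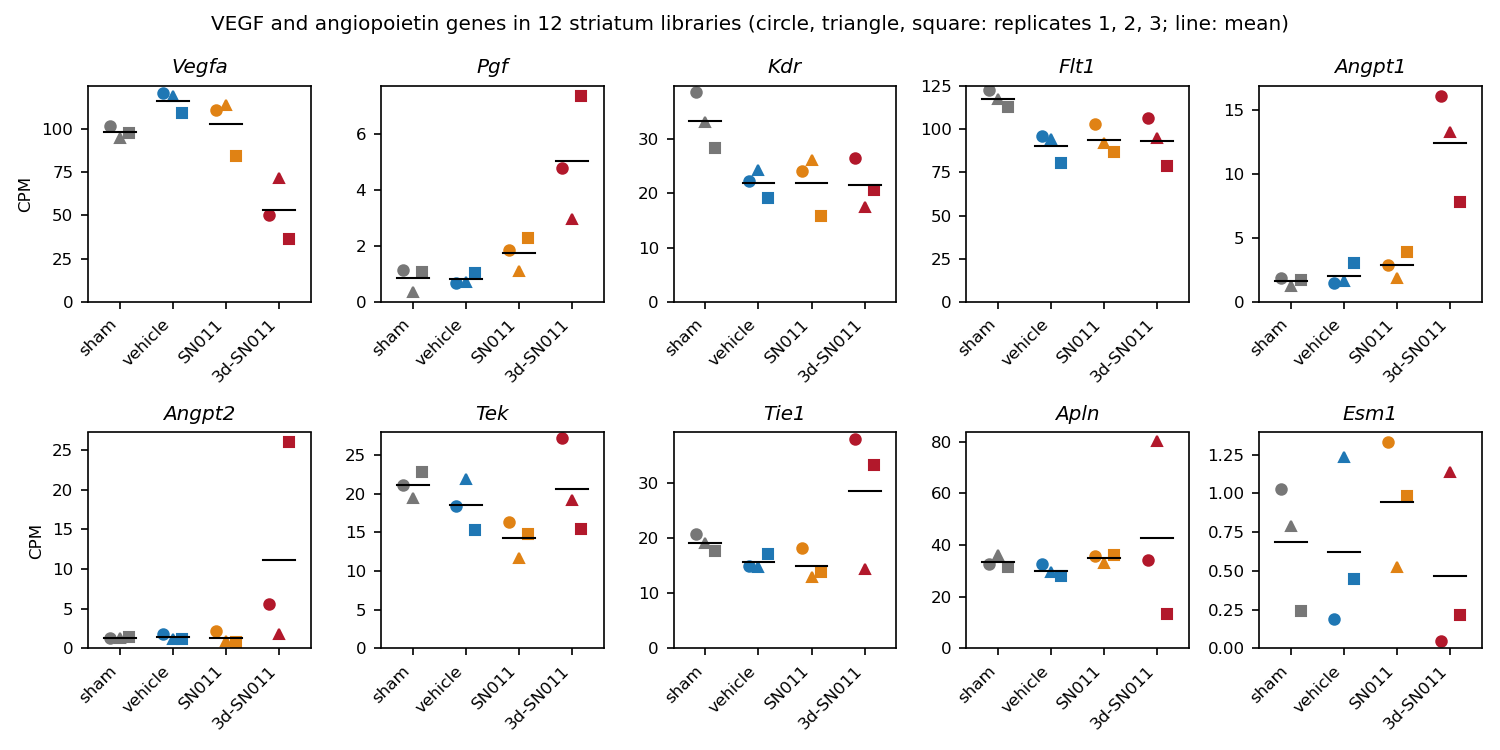
Levels of the 10 genes in each library, as TMM-scaled CPM on axes that start at 0. Circles, triangles and squares are replicates 1, 2 and 3 of the group named below them, and black lines are group means. Vegfa is lowest and Pgf and Angpt1 are highest in the 3 libraries of the 3d-SN011 arm, where Angpt2 runs from 1.83 to 26.0 CPM and Apln from 13.4 to 80.2 CPM.

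Vegfa, the main VEGF ligand (chromosome 17, 46016993 to 46032369, protein-coding), stood at 101, 94.7 and 97.9 CPM in the sham libraries. It was 121, 119 and 109 CPM in vehicle, 111, 114 and 84.2 in SN011, and 50.4, 71.8 and 36.5 in the 3d-SN011 arm. All 3 libraries of that arm lay below all 9 others, and the vehicle libraries lay above all sham libraries. Against vehicle Vegfa fell by 1.14 on the log2 scale (SE 0.20, adjusted p = 0.000357, edgeR quasi-likelihood test), which is 2.20-fold. Against sham it fell by 0.89 (SE 0.20, adjusted p = 0.00195) and against SN011 by 0.96 (SE 0.20, adjusted p = 0.00189). The difference of 0.25 from sham to vehicle did not pass the test (SE 0.20, 95% interval from -0.17 to 0.67, adjusted p = 1). Without any 1 library of the pair compared, the fall against vehicle, sham and SN011 kept its call, and against vehicle the log2 fold change lay between -1.42 and -0.93. Markers of striatal neurons were lowest in the same 3 libraries, and within the SN011 group both they (5672 CPM against 9205 and 10090) and Vegfa were lowest in replicate 3. Within 3d-SN011 the order differed, since replicate 3 had the most neuron markers (2428 CPM) and the least Vegfa. Markers of choroid plexus, a tissue rich in VEGF-A, were also low in 3d-SN011 (126, 813 and 39.4 CPM against 1414 to 2898 in vehicle). The sham libraries spanned 116 to 2661 CPM of those markers while Vegfa lay between 94.7 and 101 CPM. The part of either marker list in the fall of Vegfa was not tested.

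Pgf, which encodes PlGF (chromosome 12, 85166635 to 85177790, protein-coding), was near the lower end of what was tested, with 6 to 19 reads in each sham library and 11 to 16 in each vehicle library. In CPM it was 1.15, 0.364 and 1.09 in sham, 0.687, 0.716 and 1.03 in vehicle, 1.85, 1.11 and 2.30 in SN011, and 4.81, 2.97 and 7.38 in 3d-SN011. The 3d-SN011 libraries lay above all others. The SN011 libraries lay above the vehicle ones, although that difference of 1.11 on the log2 scale (SE 0.48) did not pass the test (adjusted p = 0.414, edgeR). Against vehicle Pgf rose 6.18-fold in 3d-SN011 (log2 fold change 2.63, SE 0.46, adjusted p = 0.000400), against sham 5.77-fold (adjusted p = 0.000468) and against SN011 2.86-fold (adjusted p = 0.0115). The last call was lost without SN011 replicate 2 (log2 fold change 1.27, adjusted p = 0.0559). The RNAs of PlGF and VEGF-A thus moved in opposite directions in this arm.

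Kdr, the receptor through which most VEGF-A signalling passes (chromosome 5, 75932827 to 75978458, protein-coding), was highest in the sham libraries. It measured 38.6, 33.03 and 28.3 CPM there, 22.2, 24.3 and 19.1 in vehicle, 24.03, 26.03 and 15.7 in SN011, and 26.4, 17.4 and 20.5 in 3d-SN011. All 9 libraries of the occluded groups lay below all 3 sham libraries, and the occluded groups overlapped each other. Of all genes, 6.29% lay below sham without overlap in vehicle, 12.9% in SN011 and 31.5% in 3d-SN011. The share that did so in every occluded group was not computed. Only the comparison of 3d-SN011 with sham passed the test, with a fall of 0.64 on the log2 scale (SE 0.21, adjusted p = 0.0187, edgeR). That call was lost without 3d-SN011 replicate 2 (adjusted p = 0.0688) or sham replicate 1 (adjusted p = 0.0778). The values for vehicle and SN011 against sham were -0.61 and -0.60 (SE 0.21 each), with adjusted p = 1 and 0.227. Between 3d-SN011 and vehicle Kdr differed by -0.028, with a 95% interval from -0.48 to 0.42. The falls of Kdr against sham were thus of like size in all occluded groups. Of all genes, 57.6% were called against sham in 3d-SN011, 0% in vehicle and 0.113% in SN011. The Benjamini-Hochberg adjustment therefore turned similar unadjusted values into different adjusted ones. The call does not mark a larger fall of Kdr in the 3d-SN011 arm.

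Flt1, the VEGF-A and PlGF receptor (chromosome 5, 147561604 to 147726011, protein-coding), was also highest in the sham libraries. Sham libraries measured 122.9, 118 and 113 CPM, vehicle 96.1, 94.5 and 80.8, SN011 103, 91.8 and 86.9, and 3d-SN011 107, 94.7 and 78.9. Again every occluded library lay below every sham library, and the share of all genes that did so was not computed. Flt1 fell by 0.34 on the log2 scale in 3d-SN011 against sham (SE 0.13, adjusted p = 0.0357, edgeR), a call that was lost without any 1 sham library (adjusted p from 0.0544 to 0.0992) and without 3d-SN011 replicate 2 (0.0568) or 3 (0.109). Against sham the values of vehicle and SN011 were -0.38 and -0.33 (SE 0.13 each), with adjusted p = 1 and 0.282. Between 3d-SN011 and vehicle the difference was 0.046, with a 95% interval from -0.23 to 0.32. The uncalled fall of Flt1 in vehicle was thus no smaller than the called fall in 3d-SN011. As for Kdr, the adjusted values differed with the share of all genes called against sham. That call does not set the 3d-SN011 arm apart from vehicle or SN011. Counts per gene do not separate the soluble form of Flt1, which only binds ligand, from the full receptor, nor the splice forms of Vegfa.

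Across the 12 libraries log2 CPM of Kdr and Flt1 had a Pearson r of 0.829, and that of Vegfa and Pgf -0.859. These describe libraries that share 4 groups and their make-up, and they were not tested.

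**Figure D2:**
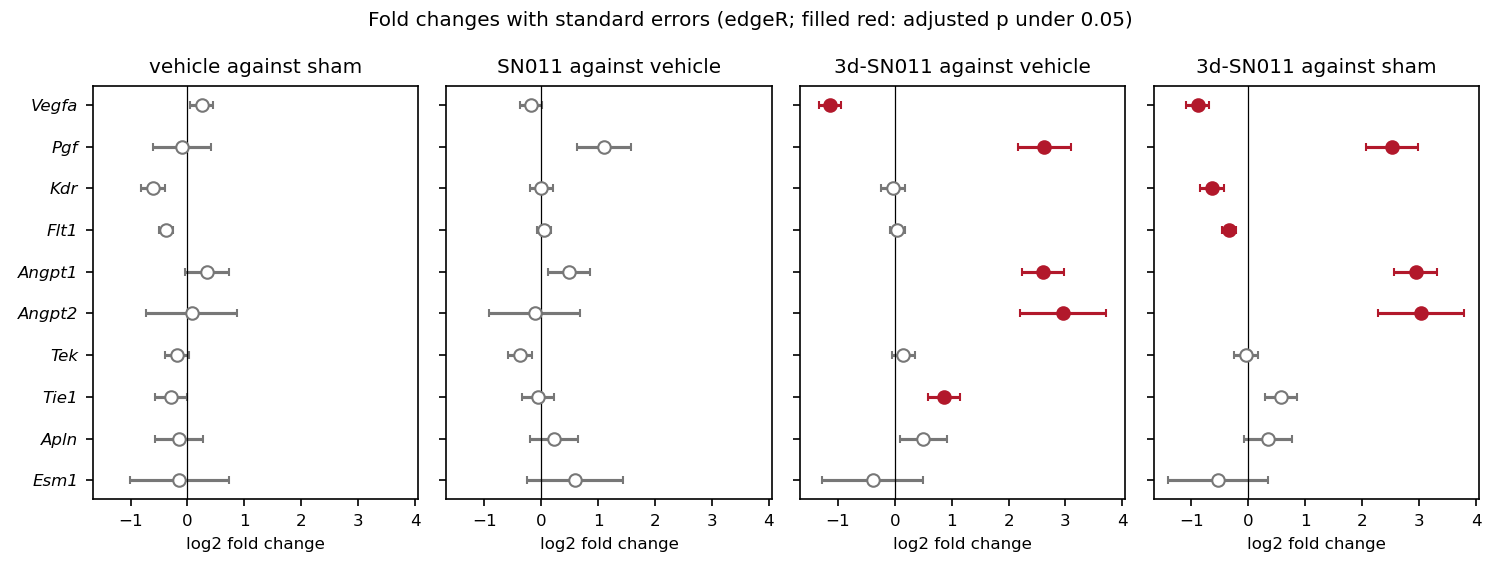
Log2 fold changes of the 10 genes in 4 comparisons from edgeR, with bars of 1 standard error. Filled red points have an adjusted p under 0.05. No point is filled in the first 2 panels, 5 are filled for 3d-SN011 against vehicle and 6 for 3d-SN011 against sham.

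Angpt1, the agonist of Tek (chromosome 15, 42424723 to 42676977, protein-coding), had the smallest adjusted p of the 10 genes in each comparison with the 3d-SN011 arm. It was 1.88, 1.27 and 1.69 CPM in sham, 1.499, 1.63 and 3.02 in vehicle, 2.89, 1.87 and 3.89 in SN011, and 16.2, 13.3 and 7.81 in 3d-SN011. The 3d-SN011 libraries lay above all others, and replicate 3 was the highest of the vehicle and of the SN011 libraries. Angpt1 rose 6.05-fold against vehicle (log2 fold change 2.60, SE 0.37, adjusted p = 8.22e-05, edgeR), 7.66-fold against sham (adjusted p = 3.93e-05) and 4.30-fold against SN011 (adjusted p = 0.000617). These calls were kept without any 1 library of the pair compared. Astrocyte and microglia markers were higher in the same libraries, and their part in the rise was not tested. Pericyte and smooth muscle markers, of cells known to make angiopoietin-1, summed to 429, 389 and 474 CPM in 3d-SN011 replicates 1 to 3. The same markers summed to 280 to 300 CPM in vehicle and 344 to 363 CPM in sham. A non-coding gene on the other strand, Gm17473, shares 737 exonic bases with Angpt1 and had 0 to 5 reads per library.

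Angpt2, the context-dependent antagonist of Tek (chromosome 8, 18690263 to 18741562, protein-coding), rose in the 3d-SN011 arm by an amount that depended on single libraries. It was 1.27, 1.33 and 1.45 CPM in sham, 1.87, 1.24 and 1.16 in vehicle, and 2.20, 0.994 and 0.767 in SN011. The 3d-SN011 replicates 1 to 3 measured 5.63, 1.83 and 26.0 CPM, so that replicate 2 lay within the range of vehicle. The log2 fold change against vehicle was 2.96 (SE 0.76, adjusted p = 0.00489, edgeR) with all libraries, 1.38 without replicate 3 (adjusted p = 0.0310) and 3.46 without replicate 2. Against sham it was 3.03 (adjusted p = 0.00423) and 1.45 without replicate 3, and against SN011 3.07 (adjusted p = 0.00555) and 1.49. These calls were kept without any 1 library of the pair compared. The order of the 3d-SN011 libraries was the same in 3 marker lists of the vessel wall and its surroundings, the pericyte and smooth muscle list above among them. Endothelial markers summed to 655, 459 and 803 CPM and those of fibroblasts and meninges to 474, 107.5 and 974 CPM, among them Col3a1, a fibrillar collagen, at 106, 3.61 and 203 CPM. Their part in the spread of Angpt2 was not tested.

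Per kilobase of exon, the ratio of Angpt2 to Angpt1 was 0.956 to 1.48 in sham and 0.540 to 1.76 in vehicle. It was 1.07, 0.749 and 0.278 in SN011 replicates 1 to 3. In 3d-SN011 it was 0.491, 0.194 and 4.69, so the arm held both the lowest and the highest ratio of the 12 libraries. The agonist exceeded the antagonist in replicates 1 and 2 of the arm and the reverse held in replicate 3.

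**Figure D3:**
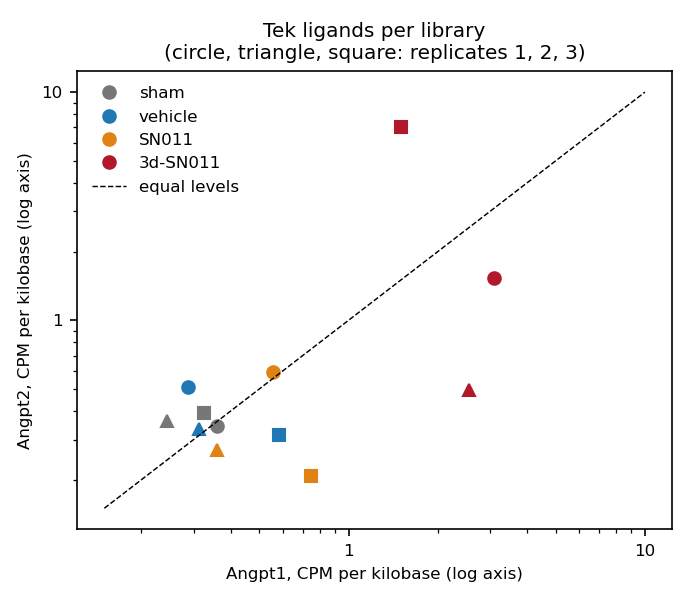
Levels of the 2 main Tek ligands in each library, in CPM per kilobase of exon on log axes, Angpt1 across and Angpt2 upward, coloured by group. Circles, triangles and squares are replicates 1, 2 and 3, and the dashed line marks equal levels. The 3d-SN011 libraries lie to the right of all others, with replicates 1 and 2 under the line and replicate 3 above it at a ratio of 4.69.

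Tek, the angiopoietin receptor (chromosome 4, 94739289 to 94874976, protein-coding), was not called in any of the 6 comparisons. It measured 21.1, 19.4 and 22.7 CPM in sham, 18.4, 21.9 and 15.3 in vehicle, 16.3, 11.6 and 14.8 in SN011, and 27.1, 19.2 and 15.4 in 3d-SN011. The SN011 libraries lay below all sham libraries, and the 3d-SN011 libraries overlapped those of sham and of vehicle. For SN011 against sham the log2 fold change was -0.57 (SE 0.21, adjusted p = 0.273, edgeR) and for 3d-SN011 against SN011 0.53 (SE 0.21, adjusted p = 0.0562), the latter 0.70 without 3d-SN011 replicate 3 (adjusted p = 0.0126). Against vehicle the 3d-SN011 arm differed by 0.15, with a 95% interval from -0.30 to 0.61.

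Tie1, the partner receptor of Tek (chromosome 4, 118471191 to 118490061, protein-coding), was 20.7, 19.1 and 17.8 CPM in sham, 14.99, 14.8 and 17.2 in vehicle, and 18.3, 13.04 and 13.9 in SN011. In 3d-SN011 it was 38.02, 14.4 and 33.3 CPM, with replicates 1 and 3 above every other library and replicate 2 below all vehicle libraries. Tie1 rose by 0.87 on the log2 scale against vehicle (SE 0.28, adjusted p = 0.0174, edgeR) and by 0.92 against SN011 (SE 0.28, adjusted p = 0.0160), and the value against sham was 0.57 (SE 0.28, adjusted p = 0.0919). The call against vehicle was lost without 3d-SN011 replicate 1 (adjusted p = 0.0870) or 3 (0.0517), without vehicle replicate 1 (0.0556) or 2 (0.0579), and in a fit of the 6 libraries alone (0.0540). The call against SN011 was lost without 3d-SN011 replicate 1 (adjusted p = 0.0770) or SN011 replicate 2 (0.0665), without replicate 3 of both vehicle and SN011 (0.0560), and in a fit of the 6 libraries alone (0.0865). Without 3d-SN011 replicate 2 the value against sham was 0.89 (adjusted p = 0.000710). Endothelial markers were likewise lowest in replicate 2 of the arm, and their part in the rise was not tested.

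Apln encodes apelin, a peptide ligand that endothelial tip cells and, in the brain, neurons also make (chromosome X, 48025146 to 48034853, protein-coding). It measured 32.6, 36.2 and 31.6 CPM in sham, 32.6, 29.4 and 28.2 in vehicle, and 35.9, 33.0 and 36.2 in SN011. In 3d-SN011 it was 34.2, 80.2 and 13.4 CPM, which holds both the highest and the lowest value of the 12 libraries. The log2 fold change against vehicle was 0.50 (SE 0.42, adjusted p = 0.324, edgeR). It was 0.93 without 3d-SN011 replicate 3 (adjusted p = 0.00704) and -0.34 without replicate 2 (adjusted p = 0.322), so a single library set its sign. The apelin receptor gene Aplnr had 1 to 10 reads in 11 libraries and 63 in 3d-SN011 replicate 1 and was not tested.

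Esm1, a marker of endothelial tip cells (chromosome 13, 113209659 to 113218098, protein-coding), was too low for a difference to be resolved, with 1 to 23 reads per library. Sham libraries lay between 0.242 and 1.03 CPM, vehicle between 0.187 and 1.24, and SN011 between 0.526 and 1.33. Its values were 0.0512, 1.14 and 0.215 in 3d-SN011 replicates 1 to 3. Every group overlapped every other. Against vehicle the 3d-SN011 arm differed by -0.39 on the log2 scale (SE 0.89), with a 95% interval from -2.31 to 1.53. Without 3d-SN011 replicate 2 Esm1 was called lower than in SN011 (log2 fold change -2.78, adjusted p = 0.0337, edgeR), on 1 and 4 reads.

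Vegfa, Apln and Esm1 were each highest in replicate 2 of the 3d-SN011 arm, whereas Pgf, Kdr, Angpt2 and Tie1 were each lowest there. Replicate 2 also had the fewest endothelial and the fewest fibroblast and meninges markers of the arm and the most of choroid plexus.

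Between vehicle and sham, the comparison that asks what occlusion did without the drug, none of the 10 genes and no other gene was called by edgeR, which is 0% of all genes. Unadjusted, 2 of the 10 (Flt1 and Kdr) and 467 of all genes were under 0.05 in edgeR's quasi-likelihood test. DESeq2 called 0 of the 10 and 3 of all genes. The groups did not overlap for 4 of the 10, Vegfa (higher) and Kdr, Flt1 and Tie1 (lower), beside 13.2% of all genes, 6.86% higher and 6.29% lower.

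Between SN011 and vehicle, which asks what the drug did after occlusion, 0 of the 10 genes were called and 0.0162% of all genes by edgeR, 0.0108% higher and 0.00539% lower. Unadjusted, only Pgf of the 10 and 2050 of all genes were under 0.05. DESeq2 called 0 of the 10, beside 446 of all genes. The groups did not overlap for 2 of the 10, Pgf and Apln, both higher in SN011, beside 16.3% of all genes, 9.01% higher and 7.32% lower. The 95% intervals of the log2 differences ran from -0.60 to 0.25 for Vegfa, from -0.45 to 0.45 for Kdr, from -0.22 to 0.33 for Flt1 and from -0.31 to 1.30 for Angpt1. Without SN011 replicate 3 the value for Vegfa was -0.050 in place of -0.18. Between SN011 and sham 0 of the 10 were called by edgeR or DESeq2, beside 0.113% of all genes by edgeR and 624 genes by DESeq2. In edgeR 4 of the 10 (Kdr, Flt1, Tek and Angpt1) and 2368 of all genes were under 0.05 unadjusted. The groups did not overlap for 3 of the 10 (Kdr, Flt1 and Tek, all lower), beside 25.6% of all genes, 12.8% higher and 12.9% lower.

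The 4 receptors are known from endothelium, and their levels were set beside 16 endothelial markers that include Cdh5 (VE-cadherin), Cldn5 and Pecam1. The markers summed to between 418 and 476 CPM in sham, between 349 and 374 in vehicle and between 356 and 430 in SN011. In 3d-SN011 replicates 1 to 3 they came to 655, 459 and 803 CPM. Against vehicle 13 of the 16 rose in 3d-SN011 and 0 fell, with a median log2 fold change of 0.95, where 28.9% of all genes were called higher and 28.2% lower. Among them Ly6c1 rose by 1.06, Eng, a TGF-beta co-receptor, by 0.96, and Egfl7, a secreted vessel protein, by 1.18. Against sham 8 of the 16 rose, beside 29.8% of all genes called higher. In neither vehicle nor SN011 was any of the 16 called against sham.

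Relative to that endothelial sum, of which the receptors are not part, Flt1 stood at 25.8% to 27.1% in the sham libraries. Vehicle ran from 23.1% to 26.6% and SN011 from 23.1% to 25.8%. Flt1 was 16.3%, 20.7% and 9.82% in 3d-SN011, below every other library. The ratio of Kdr in sham lay between 6.77% and 8.11%, with vehicle between 5.47% and 6.49% and SN011 between 4.18% and 7.31%. It was 4.03%, 3.79% and 2.56% in 3d-SN011, again below every other library. Tek was 4.44% to 5.44% in sham and 4.37% to 5.84% in vehicle, and 4.14%, 4.18% and 1.92% in 3d-SN011, below both of those groups but not below all of SN011 (3.27% to 3.93%). Tie1 was 4.25% to 4.40% in sham, and 5.81%, 3.14% and 4.15% in 3d-SN011, on both sides of sham. Set against the endothelial sum, the VEGF receptors thus stood lower in the 3d-SN011 arm, and Tie1 did not share this. These ratios are descriptions and were not tested.

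**Figure D4:**
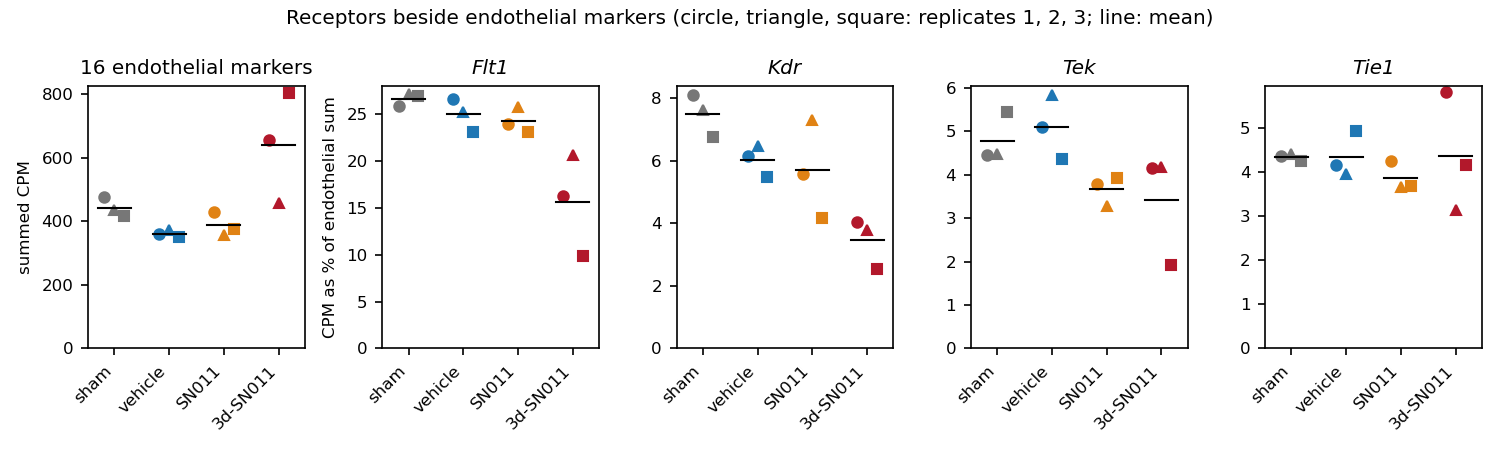
The first panel gives the summed CPM of 16 endothelial markers in each library, and the other 4 give the CPM of Flt1, Kdr, Tek and Tie1 as a percentage of that sum. Symbols are replicates 1, 2 and 3 as circle, triangle and square, lines are group means, and axes start at 0. The sum reaches 803 CPM in 3d-SN011, where Flt1 lies between 9.82% and 20.7% and the other groups lie at 23.1% or more.

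Levels can be compared between genes only per length. Per kilobase of exon, the mean in sham (n = 3, ± SD) was 22.9 ± 0.787 CPM for Vegfa, 10.6 ± 0.781 for Apln and 8.73 ± 0.374 for Flt1. Tek (4.47 ± 0.355), Tie1 (3.91 ± 0.302) and Kdr (3.69 ± 0.569) came next, and Tie1 and Kdr did not differ beyond their spread. Angpt2 (0.367 ± 0.0245), Esm1 (0.328 ± 0.193), Angpt1 (0.310 ± 0.0598) and Pgf (0.299 ± 0.151) were lowest and within each other's spread. In 3d-SN011 Vegfa stood at 12.3 ± 4.15, within the spread of Apln (13.5 ± 10.9). Angpt1 (2.39 ± 0.816) was within the spread of Kdr (2.37 ± 0.507), and Pgf stood at 1.74 ± 0.764. Angpt2 was below Kdr in replicates 1 (1.53 against 2.92) and 2 (0.496 against 1.93) and above it in replicate 3 (7.04 against 2.27).

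Of 20 further genes of the VEGF, angiopoietin and apelin pathway, 18 had enough counts to be tested, all but Aplnr and Apela. In 3d-SN011 against vehicle 9 rose, 4 fell and 5 were not called, with a median log2 fold change of 0.56 beside 0.0093 over all genes, of which 28.9% were called higher and 28.2% lower. The co-receptors of VEGF rose: Nrp1 from 15.4, 18.5 and 15.5 CPM to 71.5, 50.5 and 49.9, and Nrp2 from 7.93, 7.74 and 13.9 to 54.7, 31.5 and 44.2. Their log2 fold changes were 1.80 (SE 0.22, adjusted p = 3.55e-05, edgeR) and 2.14 (SE 0.30, adjusted p = 7.92e-05). Neither gene's groups overlapped, beside 59.4% of all genes without overlap in that comparison, 29.5% higher and 30.0% lower. Of the class 3 semaphorins, which compete with or counter VEGF on vessels, the list held only Sema3a and Sema3e. Sema3a fell by 2.41 and Sema3e by 2.24 on the log2 scale. Plxnd1, the receptor of Sema3e, fell by 1.07, and none of these genes had overlapping groups. These genes are also expressed by neurons, and striatal neuron markers fell in the same libraries.

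Among the other ligands and receptors, Vegfb, a ligand of Flt1, rose by 0.60 on the log2 scale and Flt4, the receptor of VEGF-C, by 0.61. Angpt4, another Tie2 ligand, had 0 to 7 reads per vehicle library and 20 to 46 per 3d-SN011 library (log2 fold change 3.37, adjusted p = 0.00264, edgeR). Vegfc and Vegfd had values of 0.52 and 0.47 and were not called. The inhibitors of VEGF action Thbs1, Thbs2 and Adamts1, which encode thrombospondins and a protease that can bind VEGF-A, all rose. Thbs2 rose from 1.81, 1.95 and 4.05 CPM in vehicle to 26.7, 37.5 and 22.1, and Adamts1 from 11.7, 14.8 and 12.6 to 38.2, 31.9 and 62.4. Thbs1 rose by 3.88 on the log2 scale, on values of 19.5, 8.75 and 159 CPM in 3d-SN011 replicates 1 to 3, of which replicate 3 was also the highest for Angpt2. Of the signalling genes, Nos3, the endothelial nitric oxide synthase, rose by 0.97 and the adaptor Shb fell by 1.37, whereas Plcg1, the phospholipase downstream of Kdr, differed by -0.033 (adjusted p = 0.827). Ptprb, the phosphatase that restrains Tek, had a value of 0.46 (adjusted p = 0.0588).

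Of 14 genes known from tip cells and sprouting, 13 were tested and 7 rose in 3d-SN011 against vehicle, with a median of 1.07 and none lower, where 57.1% of all genes were called and 28.9% higher. Cxcr4, a chemokine receptor of tip cells and of leukocytes, rose from 2.50, 2.80 and 2.96 CPM to 25.7, 18.4 and 32.3, Igfbp3 rose by 2.89 and Pdgfb, the signal that recruits pericytes, by 1.07 on the log2 scale. Microglia and macrophage markers rose in the same libraries, and their part in the rise of Cxcr4 was not tested. Of 8 regulators of the hypoxia-inducible factors 3 rose (Epas1 by 0.61, Egln3 by 1.72 and Hif1a by 0.79) and 2 fell (Arnt by 0.32 and Hif1an by 0.32), with a median of 0.11. Of 12 HIF targets other than Vegfa 7 rose and 2 fell, with a median of 0.54. Both lists stand beside 28.9% of all genes called higher and 28.2% lower. Hk2, which encodes a hexokinase, rose from 3.998, 4.30 and 6.31 to 73.2, 51.2 and 36.4 CPM, whereas Ankrd37 and Bnip3 fell by 1.70 and 1.02. In vehicle against sham and in SN011 against vehicle 0 genes of these 4 lists were called by edgeR.

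**Figure D5:**
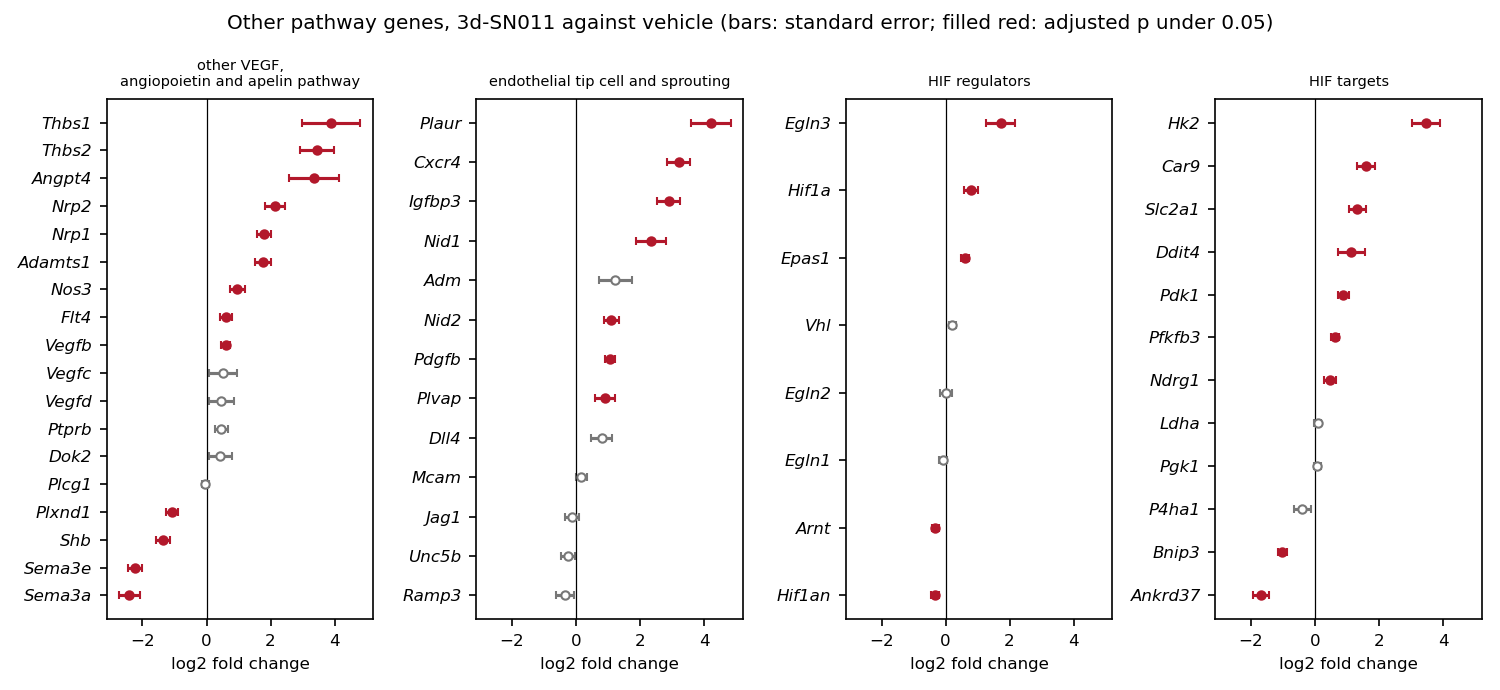
Log2 fold changes of 51 further genes in 3d-SN011 against vehicle, in 4 lists, with bars of 1 standard error and filled red points for an adjusted p under 0.05. In the first panel the thrombospondins, Angpt4 and the neuropilins lie highest and the semaphorins lowest, at -2.24 and -2.41.

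The genes whose log2 CPM followed each member most closely over the 12 libraries were found among 14206 to 14207 genes that averaged 1 CPM or more. For Tie1 these were Cdh5 (Pearson r = 0.947) and Hspg2, the basement membrane proteoglycan perlecan (0.946). For Angpt2 they were Ric8a (0.975) and the endothelial marker Egfl7 (0.965). Flt1 was nearest to Slc19a3, a thiamine transporter (0.907), and Itm2a (0.886), and Kdr to Rab22a (0.901) and Trak2 (0.878). Pgf was nearest to Emilin1, a protein of elastic fibres (0.978), and Id3 (0.972), and Angpt1 to St6galnac4 (0.991) and Ppm1m (0.990). Vegfa was nearest to Ust (0.980) and Nebl (0.979), Apln to Hapln1, a link protein of perineuronal matrix (0.971), and Phyhipl (0.952), Tek to Oxsr1 (0.890) and Spg20 (0.857), and Esm1 to Esrrb (0.895) and Palmd (0.872). The 12 points share their groups and their cell make-up, so a high r is a description of likeness over these libraries.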

How the data were processed

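Trizol-extracted striatal RNA went into polyA+ libraries sequenced as read pairs, per the labels' protocols. HISAT2 and featureCounts on mm10 are named in the submitters' processing notes, and for both tools the version, annotation and strandedness were not given in the sources used here. Each deposited table holds raw integer counts of reads, 1 value per Ensembl gene. Reads of genes that overlap on opposite strands could thus be mixed. Symbols came from the reference gene names, positions and exon lengths from GENCODE M21 (GRCm38), and promoters from RefSeq.

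The model was edgeR 4.0.16 in R 4.3.3: filterByExpr with a minimum count of 10, TMM scaling, 1 quasi-likelihood model of all 12 libraries with group as the only term, and Benjamini-Hochberg adjustment over 18537 genes. The groups share 1 estimate of the spread, although they differ in it. CPM values are TMM-scaled, and log2 CPM for correlations used a prior count of 2. TMM scaling assumes that most genes are unchanged, whereas 57.1% of genes were called in 3d-SN011 against vehicle. The members and gene lists were chosen with earlier results of these data known. Named genes are the 10 members, every called gene of the further pathway list, the 3 called genes with the smallest adjusted p of each other list in 3d-SN011 against vehicle, and the 2 nearest patterns of each member. Aplnr, Apela, Plcg1, Ptprb, Vegfc and Vegfd were named after their values were seen, as were Arnt, Hif1an, Cdh5, Cldn5 and Pecam1 as examples of their list. On simulated data for 3d-SN011 against vehicle (18146 genes), 4% of genes changed 1.5-fold, 58% of those changed 2-fold and 98% of those changed 4-fold were recovered, with 11 false calls among 141. The simulation changed 50 genes at each fold, whereas 57.1% of all genes were called in the data for this comparison. The same adjusted p thus stood for a different unadjusted p, and these rates do not give the recovery in these data. No 2 libraries of a group matched within counting error (chi-square per degree of freedom 4.79 or more), so each counted as 1 sample. Alternatives were RLE scaling, DESeq2 1.42.0, no filter, the 6 libraries compared, the replicate number as a block, and leaving out each library. Added after the data were seen was a fit without replicate 3 of vehicle and of SN011. Figures used matplotlib 3.10.9.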

Additional observations from a re-analysis of the deposited data

How the results depend on the processing

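Under the alternatives, 693 values of the 10 genes stayed on their side of the threshold, 19 lost a call and 7 gained one. In the 3 comparisons without the 3d-SN011 arm, 0 of the 10 were called under any alternative. In that arm the number called without 1 library ranged from 4 to 5 against vehicle, 4 to 6 against sham and 3 (without SN011 replicate 2) to 7 (without 3d-SN011 replicate 3) against SN011. Of all genes these fits called 9354 to 11047 against vehicle, 9242 to 11095 against sham and 6310 to 9307 against SN011. The 6310 and the 9307 came from the same fits as the 3 and the 7. Over all genes, the count for SN011 against vehicle was 3 and ranged from 0 to 513 without 1 library. It was 446 by DESeq2, 601 without a filter, 5 in the 6 libraries alone and 6 without replicate 3 of both groups. For SN011 against sham it was 21, ranged from 0 to 694 without 1 library, and was 624 by DESeq2, 775 without a filter and 7 in the 6 libraries alone. For vehicle against sham it was 0, and 3, 5 and 16 under those settings. The cause was not tested. With the replicate number as a block, 19 genes were called for SN011 against vehicle and 28 for SN011 against sham. The count of members then stayed at 5, 6 and 5 in 3d-SN011 against vehicle, sham and SN011, beside 10261, 10324 and 8142 of all genes. Little sign of pairing by number was seen. Deviations of same-numbered libraries correlated at -0.293 to 0.143, with 2 of 18 pairs over 0.1, and 7 of 36 matches were best with their own number. The deviations of 3 libraries from their group mean are tied to each other, so this check cannot exclude pairing. With Esm1 at 1 to 23 reads and Pgf at 6 to 19 in sham, depth limits what can be seen of these genes. In the 6 libraries of 3d-SN011 and vehicle alone Esm1 did not pass the filter.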
